A study of Mus musculus with 9 samples.

Results

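Cytochrome P450 and glutathione transferase genes, together with the flavin-containing monooxygenases, were followed in mouse lung as a group of 107 genes among the 55851 in the deposited table. The members were the protein-coding genes named as P450 families 1 to 4 (75 genes), as soluble or microsomal glutathione transferases (25 genes) or as Fmo (7 genes). RNA of lung cells from female C57BL/6J mice was sequenced in 9 libraries. The 3 groups were ovalbumin-challenged mice without DJ-1 (DJ-1 KO OVA; DJ1_KO_OVA_263, DJ1_KO_OVA_266 and DJ1_KO_OVA_267), ovalbumin-challenged wild-type mice (WT OVA, libraries 5, 6 and 9) and wild-type mice given phosphate-buffered saline (WT PBS, libraries 1, 2 and 3). All 9 carried a time label of 7 weeks, and no knockout group given saline was analysed here. Ovalbumin is an allergen used to model allergic airway inflammation, and DJ-1, the product of Park7, is a protein linked to the cell's handling of oxidative stress. The labels do not say how the knockout was made, whether it covers every cell type, or whether a library is 1 animal or a pool, so p-values measure spread between libraries that may be technical.

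Cytochrome P450 enzymes oxidise lipids, steroids and inhaled chemicals, using electrons passed on by a reductase, and flavin-containing monooxygenases oxidise nitrogen and sulphur in small molecules. Glutathione transferases couple electrophiles, including products of such oxidation and of lipid peroxidation, to glutathione. Several of their genes are induced through Nrf2 or, in P450 family 1, through the aryl hydrocarbon receptor. In the mouse lung, much of the xenobiotic P450 activity lies in the club cells of the conducting airways.

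The libraries held 20812192 to 29080130 reads recovered from the deposited values, and 12636 to 12983 genes per library reached 1 FPKM (reads scaled to gene length and library size). Park7 was at 3.96, 7.29 and 3.97 FPKM in DJ-1 KO OVA, against 57.9, 53.1 and 60.5 in WT OVA and 49.6, 53.8 and 36.7 in WT PBS, so every library matched its genotype label. The lung label was met by the defining markers of club cells (Scgb1a1, 20556 to 100231 FPKM over the 9 libraries) and of alveolar type 2 cells (Sftpc, 5089 to 39155 FPKM), while albumin, a liver product, was at 0.0868 to 0.522 FPKM. Of the alveolar type 1 markers, Ager was at 61.4 to 356 FPKM, but Pdpn had at most 0.0280 FPKM in any library. The FPKM summed over all genes ran from 308542 to 472548 in DJ-1 KO OVA, from 570483 to 602047 in WT OVA and from 392285 to 551459 in WT PBS. The deposited values were scaled on the median gene, so a difference here is relative to that gene. Because whole lung cells were measured, fewer cells of a type and less RNA per cell cannot be told apart.

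Of the 107 genes, 48 had a mean of at least 0.2 FPKM over the 9 libraries and entered the test, namely 23 P450 genes, 20 glutathione transferase genes and 5 Fmo genes. A mean of at least 1 FPKM was reached by 39, of which 15 were P450, 19 glutathione transferase and 5 Fmo genes. Cyp2f2, the club cell enzyme that activates naphthalene in mice, had the highest mean (527 FPKM). Gsto1 followed at 158, Mgst1 at 154, Gstm1 at 115, Cyp4f18 at 77.0, Gsta4 at 57.7 and Gstt1 at 52.9 FPKM. The lowest of the genes tested was Cyp2c23, with a mean of 0.262 FPKM.

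The 59 genes outside the test had means of at most 0.178 FPKM, the value of Gsta1. In 35 of them no read was recovered in any library, 12 had 1 to 9 reads over the 9 libraries and 12 had 10 or more. P450 genes made up 52 of the 59, many of them known from liver. The 14 Cyp2c genes between 39007019 and 40187333 on chromosome 19 (GRCm38.p6) and the 6 Cyp3a genes between 145345279 and 146113287 on chromosome 5 were all below the filter. Cyp1a2, Cyp2c29, Cyp3a11, Cyp4a10 and Cyp4a14 were listed at 0 in all 9 libraries.

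Clusters that held a tested gene were uneven inside. The 13 Cyp2 genes between 25802475 and 27158668 on chromosome 7 included Cyp2f2, Cyp2b10, Cyp2s1, Cyp2a5 and Cyp2t4, which were tested, and 8 others that were not. Of the 8 Cyp4f genes between 32452723 and 32947402 on chromosome 17, 6 were tested. In the Gstm cluster on chromosome 3 (107895821 to 108044894), 6 of 7 genes were tested, with means over the 7 of 0.147 to 115 FPKM. The Fmo cluster on chromosome 1 (162793188 to 162984528) had 4 of its 5 genes tested.

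In DJ-1 KO OVA against WT OVA, most of these genes were at lower levels in the knockout libraries. Of the 48 tested, 46 had a negative difference, or 30 when libraries were rescaled to equal FPKM sums; on the log2(FPKM + 0.5) scale their median was -0.73, while the median of all 17716 genes tested was 0. At a Benjamini-Hochberg adjusted p below 0.05 in a single limma fit across all genes, 16 members were lower and 1, Cyp1b1, was higher, 17 in all. Over all genes tested, 8.24% were lower, 5.93% higher and 14.2% were called in either direction. All 3 knockout libraries lay below all 3 WT OVA libraries for 24 of the 48 members, compared with 18.8% of all genes tested. The count of lower members was 6 without DJ1_KO_OVA_263, 1 without DJ1_KO_OVA_267, 2, 1 and 4 without WT OVA libraries 5, 6 and 9, and 8 without WT PBS library 1. It was 21 without DJ1_KO_OVA_266. At equal FPKM sums it was 1, and 6 when the WT PBS libraries were left out of the fit.

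**Figure D1:**
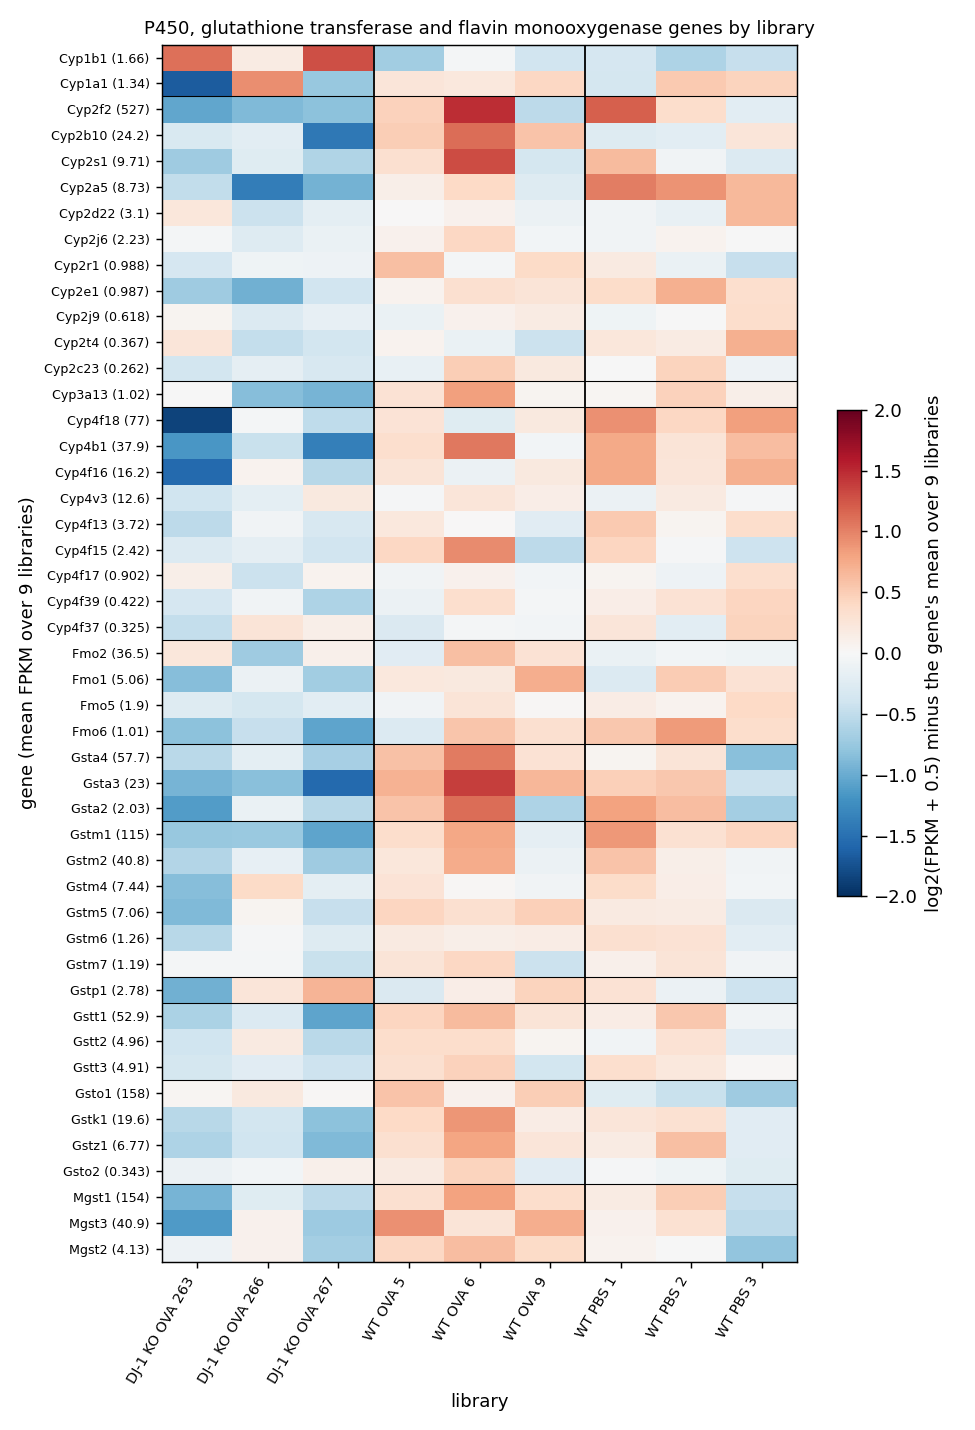
Level of 47 of the genes tested (rows, grouped by family, with the mean FPKM in brackets) in each of the 9 libraries (columns), as log2(FPKM + 0.5) minus the gene's mean over the 9 libraries, red for above and blue for below. Most rows are blue in the 3 DJ-1 KO OVA columns, Cyp1b1 is red there, and the WT OVA and WT PBS columns are mixed.

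The glutathione transferases held 9 of the 16 lower members, out of 20 tested, and all 20 had a negative difference (median -0.81), or 13 of 20 at equal FPKM sums. Gsta3, an alpha-class enzyme that in mice conjugates the reactive epoxide of aflatoxin, stood at 9.76, 10.4 and 6.14 FPKM in DJ-1 KO OVA, against 31.1, 50.5 and 30.3 in WT OVA. The groups did not overlap. Called members were picked by their p-value in this same comparison, so such separation adds no support for any of them. The Gsta3 difference was -2.02 ± 0.32 (SE) on the log2 scale, 4.06-fold lower in the knockout libraries, with an adjusted p of 0.00796. Gsta3 was the only member past the threshold in that comparison under all 18 alternative settings, its adjusted p running from 0.00381 to 0.0415. Gsta4, which conjugates the lipid peroxidation product 4-hydroxynonenal, had 36.4, 46.3 and 33.4 FPKM in DJ-1 KO OVA, against 79.9, 110 and 65.3 in WT OVA. Its highest knockout library was below its lowest WT OVA library (-1.10 ± 0.31, adjusted p = 0.042). Gsta2, at 1.01 ± 0.50 FPKM in DJ-1 KO OVA against 2.68 ± 1.68 in WT OVA (SD, n = 3 each), did not pass (-0.96 ± 0.49, adjusted p = 0.182). Of its 50-base stretches, 64.2% also occur in transcripts of other genes, above all of Gsta1, so its reads are uncertain.

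Gstm1, the most abundant mu-class enzyme here, measured 61.5, 62.4 and 49.9 FPKM in DJ-1 KO OVA and 133, 178 and 91.7 FPKM in WT OVA. All 3 knockout libraries were lower (-1.16 ± 0.27, adjusted p = 0.0266), and 23.1% of its 50-base stretches are shared with other transcripts. Gstm5 was at 3.43, 7.02 and 4.80 FPKM in DJ-1 KO OVA, against 9.29, 8.61 and 9.63 in WT OVA (-0.84 ± 0.25, adjusted p = 0.0465), with 13.9% of its exonic bases under an antisense transcript. The other 4 tested Gstm genes had differences of -0.77 for Gstm2 (adjusted p = 0.0758), -0.43 for Gstm6, -0.29 for Gstm4 and -0.26 for Gstm7, none past the threshold. Gstm1 and Gstm5 were thus the called members of that cluster, and the called genes lie at different places in it with uncalled ones between them.

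Lower levels were also found outside the alpha and mu classes. Gstt1, a theta-class enzyme that acts on halogenated alkanes, had 31.9, 41.1 and 23.8 FPKM in DJ-1 KO OVA, against 67.3, 77.3 and 59.8 in WT OVA (-1.09 ± 0.25, adjusted p = 0.0245). Gstk1, found in mitochondria and peroxisomes, stood at 12.3, 14.2 and 10.2 FPKM in DJ-1 KO OVA and 24.4, 34.3 and 20.5 FPKM in WT OVA (-1.06 ± 0.24, adjusted p = 0.0245). Gstz1, the maleylacetoacetate isomerase of tyrosine breakdown, averaged 3.94 ± 0.74 FPKM in DJ-1 KO OVA and 8.94 ± 2.01 in WT OVA (-1.08 ± 0.25, adjusted p = 0.0255). In each of these genes the OVA groups did not overlap. Of Gstz1's exonic bases, 12.2% lie under genes on the other strand.

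Of the 3 membrane-bound transferases, 2 were lower. Mgst1, which also reduces lipid hydroperoxides, measured 76.0, 122 and 101 FPKM in DJ-1 KO OVA, against 181, 252 and 185 in WT OVA (-1.05 ± 0.30, adjusted p = 0.0437). Mgst3 was at 16.7, 39.6 and 22.4 FPKM in DJ-1 KO OVA, against 70.9, 44.7 and 62.1 in WT OVA (-1.23 ± 0.34, adjusted p = 0.0399). DJ1_KO_OVA_266 came close to WT OVA library 6 without reaching it. Mgst2, which can make leukotriene C4, averaged 3.37 ± 0.99 FPKM in DJ-1 KO OVA and 5.63 ± 0.55 in WT OVA, and did not pass (-0.70 ± 0.27, adjusted p = 0.0998).

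The omega and pi classes had no called member. Gsto1, an omega-class thioltransferase and the most abundant transferase, had 157, 175 and 154 FPKM in DJ-1 KO OVA, against 227, 161 and 214 in WT OVA. These values overlapped (-0.29 ± 0.23, adjusted p = 0.377), and the sign was positive under 2 other scalings. Gstp1, the pi-class enzyme, averaged 2.92 ± 1.71 FPKM in DJ-1 KO OVA and 2.90 ± 0.85 in WT OVA (-0.11 ± 0.39, adjusted p = 0.862). Its sign also depended on the scaling and on single libraries, and 62.3% of its 50-base stretches are shared with Gstp2. Gstt2 (-0.51, adjusted p = 0.148), Gstt3 (-0.47, adjusted p = 0.173) and Gsto2 (-0.15, adjusted p = 0.629) did not pass either.

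**Figure D2:**
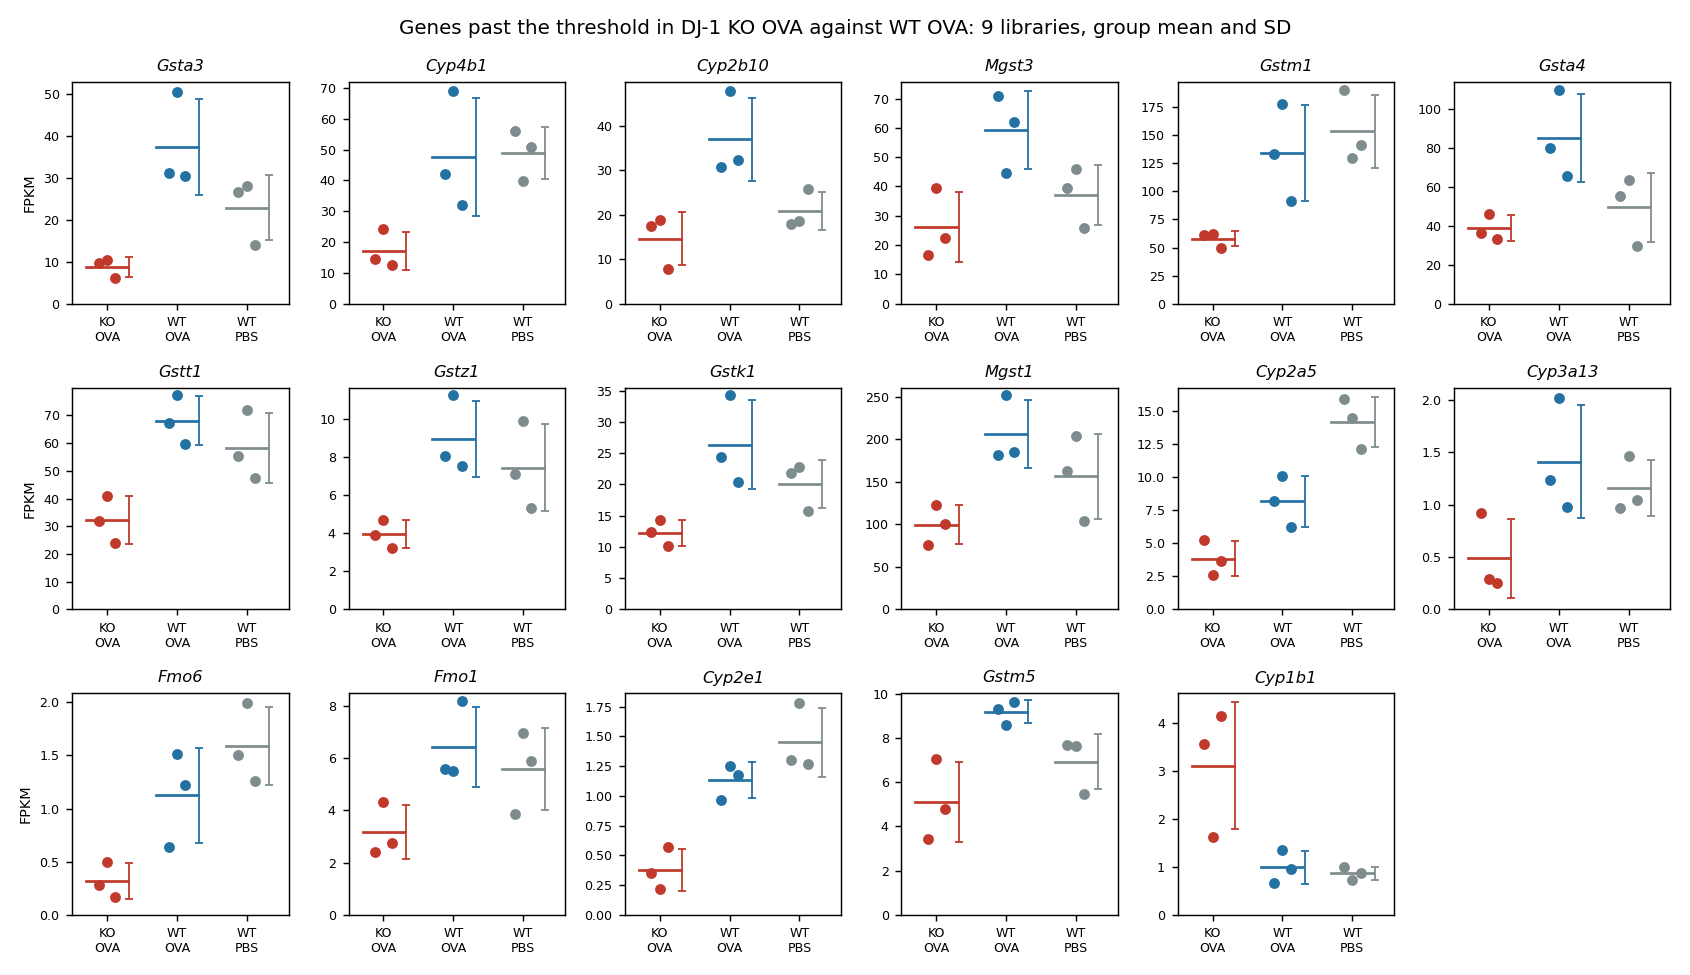
FPKM of the 17 genes past the threshold in DJ-1 KO OVA against WT OVA, a panel for each gene with its own axis starting at 0; points are libraries, lines are means and bars the SD over 3 libraries. In 16 panels the 3 DJ-1 KO OVA points lie below the 3 WT OVA points, and in the Cyp1b1 panel they lie above them. The genes were picked by their p-value in this same comparison, so that separation adds no support.

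Among the P450 genes, 5 of 23 tested were lower and 1 was higher in DJ-1 KO OVA against WT OVA, with a median of -0.49. The sign was negative for 21 of 23 with the deposited scaling and for 14 of 23 at equal FPKM sums (median -0.18). Cyp4b1, a lung-rich enzyme that activates the toxin 4-ipomeanol, stood at 14.4, 24.3 and 12.6 FPKM in DJ-1 KO OVA, against 42.0, 68.9 and 31.9 in WT OVA (-1.43 ± 0.32, adjusted p = 0.0236). Cyp2b10, known in mouse liver for its induction by phenobarbital, had 17.5, 18.8 and 7.76 FPKM in DJ-1 KO OVA, against 30.8, 47.8 and 32.4 in WT OVA (-1.37 ± 0.33, adjusted p = 0.0275). Neither gene's groups overlapped. Cyp2a5, the mouse coumarin hydroxylase, measured 5.24, 2.57 and 3.67 FPKM in DJ-1 KO OVA and 8.19, 10.1 and 6.21 FPKM in WT OVA (-1.02 ± 0.26, adjusted p = 0.0321). Its 50-base stretches were shared with other transcripts for 40.8%, chiefly with Cyp2a4, whose own mean was 0.134 FPKM. Cyp2a4, outside the test, had 3, 18 and 25 reads in DJ-1 KO OVA, against 0, 0 and 3 in WT OVA. How reads were divided between this pair is uncertain.

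The 2 remaining lower P450 genes were expressed at low levels. Cyp2e1, the ethanol-oxidising P450, was at 0.350, 0.216 and 0.568 FPKM in DJ-1 KO OVA, against 0.966, 1.25 and 1.18 in WT OVA (-0.91 ± 0.21, adjusted p = 0.0246). These values stand on 11 to 30 reads per knockout library and 40 to 62 reads per WT OVA library. Cyp3a13, the Cyp3 gene outside the chromosome 5 cluster, had 0.924, 0.287 and 0.249 FPKM in DJ-1 KO OVA, against 1.23, 2.02 and 0.980 in WT OVA (-0.98 ± 0.29, adjusted p = 0.0489). DJ1_KO_OVA_263 fell just short of WT OVA library 9. Cyp3a13 had 94, 20 and 18 reads in the knockout libraries and passed under 6 of 18 alternative settings. For genes this low, the log2(FPKM + 0.5) scale understates the change.

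Cyp2f2 had the highest level and did not pass. It measured 211, 235 and 247 FPKM in DJ-1 KO OVA, against 603, 1215 and 302 in WT OVA and 998, 553 and 377 in WT PBS. The knockout libraries were close to each other and below all 6 wild-type libraries, whose own values spanned 302 to 1215 FPKM. The difference from WT OVA was -1.39 ± 0.49 with an adjusted p of 0.0773, and the adjusted p was 0.047 when the recovered reads were fitted with limma-voom. Of its exonic bases, 13.5% lie under an antisense transcript. Cyp4f18, the enzyme that hydroxylates leukotriene B4 in mouse neutrophils, had 18.6, 66.6 and 48.1 FPKM in DJ-1 KO OVA, against 82.7, 57.9 and 78.0 in WT OVA and 129, 91.0 and 121 in WT PBS. Its OVA groups overlapped, and the difference was -0.87 ± 0.40 (adjusted p = 0.148). None of the 6 tested Cyp4f genes of the chromosome 17 cluster passed, with differences of -0.79 for Cyp4f16 to 0.09 for Cyp4f37. Cyp2s1 (-0.94, adjusted p = 0.111) and Cyp2r1, a vitamin D 25-hydroxylase (-0.49, adjusted p = 0.158), did not pass.

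Cyp1b1 was the member that rose. This P450 of the aryl hydrocarbon receptor pathway, which oxidises polycyclic aromatic hydrocarbons and oestradiol, stood at 3.56, 1.62 and 4.16 FPKM in DJ-1 KO OVA, against 0.669, 1.35 and 0.958 in WT OVA and 1.00, 0.734 and 0.875 in WT PBS. All 3 knockout libraries were above all 6 wild-type libraries. The difference from WT OVA was 1.23 ± 0.30, or 2.34-fold, with an adjusted p of 0.028, and that from WT PBS was 1.33 ± 0.30 with an adjusted p of 0.024. Without DJ1_KO_OVA_263 or DJ1_KO_OVA_267 it passed in neither comparison. Without any one of the WT OVA libraries it did not pass against WT OVA, and without any one of the WT PBS libraries it did not pass against WT PBS. Fibroblast markers were mixed: 5 of 11 were higher and 1 lower than in WT OVA, beside 5.93% and 8.24% of all genes tested. The 5 were the collagen genes Col1a1, Col1a2 and Col3a1, the matrix glycoprotein gene Fn1 and the matricellular protein gene Postn. The lower one was Inmt, a methyltransferase gene (-2.16 ± 0.29, adjusted p = 0.00396), and Dcn, Lum, Pdgfra, Pdgfrb and Tcf21 did not pass. The mean log2 level of that list was 4.87 to 5.66 in DJ-1 KO OVA, 4.45 to 4.47 in WT OVA and 4.49 to 4.78 in WT PBS. Col1a1, a fibrillar collagen chain, had 136, 143 and 291 FPKM in DJ-1 KO OVA, against 65.0, 52.9 and 52.4 in WT OVA. The part of fibroblasts in the result was not tested.

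Cyp1a1, the other tested gene of its family and the classic target of the aryl hydrocarbon receptor, did not follow Cyp1b1. It had 0.0208, 2.64 and 0.469 FPKM in DJ-1 KO OVA, against 1.44, 1.39 and 1.70 in WT OVA and 0.789, 1.87 and 1.75 in WT PBS. The knockout libraries held its lowest and its highest value, on 2 and 174 reads. The difference was -0.78 ± 0.53 (adjusted p = 0.305), and without DJ1_KO_OVA_266 it was past the threshold, with an adjusted p of 0.0106. Endothelial markers put the knockout libraries in the same order, as did 9 of the 17 marker and pathway lists in all. An order of 3 libraries cannot tell these lists apart. The endothelial markers had mean log2 levels of 1.45 in DJ1_KO_OVA_263, 3.56 in DJ1_KO_OVA_266 and 2.30 in DJ1_KO_OVA_267, against 3.12 to 3.56 in WT OVA and 3.30 to 3.87 in WT PBS. In those knockout libraries, named in that order, ciliated markers were at 1.35, 2.13 and 1.85 and neutrophil markers at 5.54, 6.38 and 5.63. Cldn5, a tight junction gene of endothelium, was at 4.60, 85.4 and 16.9 FPKM in those knockout libraries. Of the 12 endothelial markers, 0 were called in limma in DJ-1 KO OVA against WT OVA, with 2 lower at an unadjusted p below 0.05 and 2 lower in the limma-voom fit. The part of any of these cell types in the Cyp1a1 values was not tested.

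Of the flavin-containing monooxygenases, 2 of 5 tested were lower in DJ-1 KO OVA against WT OVA, and the median was -0.93. All 5 had a negative sign with the deposited scaling, and 3 of 5 at equal FPKM sums (median -0.38). Fmo1 measured 2.41, 4.34 and 2.76 FPKM in DJ-1 KO OVA, against 5.60, 5.51 and 8.19 in WT OVA (-0.93 ± 0.27, adjusted p = 0.0466). Fmo6 was at 0.282, 0.498 and 0.167 FPKM in DJ-1 KO OVA, against 0.639, 1.52 and 1.22 in WT OVA (-0.97 ± 0.26, adjusted p = 0.0366), on 8 to 23 reads per knockout library. In both genes the OVA groups did not overlap. Fmo2, the main pulmonary form in mice, had 41.4, 21.5 and 38.3 FPKM in DJ-1 KO OVA, against 30.2, 54.0 and 43.4 in WT OVA. Its groups overlapped (-0.35 ± 0.28, adjusted p = 0.402), with a positive sign at equal FPKM sums. Fmo5 was at 1.46 ± 0.10 FPKM in DJ-1 KO OVA and 1.99 ± 0.29 in WT OVA (adjusted p = 0.202).

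**Figure D3:**
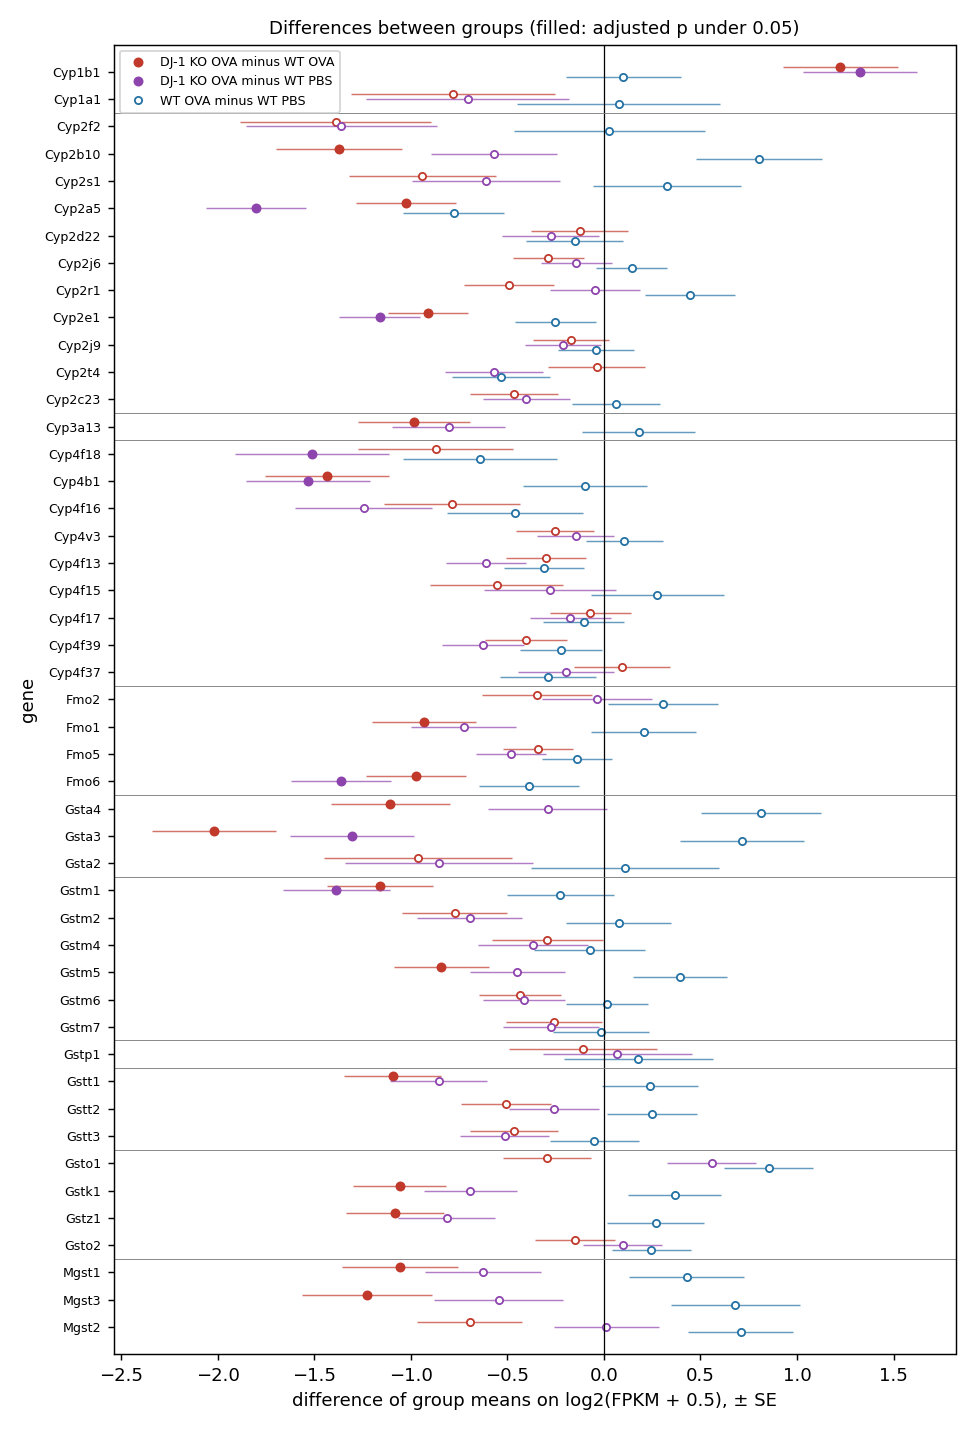
Differences between group means on the log2(FPKM + 0.5) scale with their SE for 47 of the genes tested, grouped by family; red is DJ-1 KO OVA minus WT OVA, purple DJ-1 KO OVA minus WT PBS, blue WT OVA minus WT PBS, and filled points have an adjusted p below 0.05. Red points lie left of 0 for 45 of the 47 genes, 17 red and 8 purple points are filled, and no blue point is filled.

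The promoters of the member with the largest rise and of the 3 with the largest falls are printed to show what stands before their start sites. Each is the 250 bases before the RefSeq start (GRCm38.p6), 5′ to 3′ on the gene's strand. The motifs searched on both strands were GCGTG, the core that the aryl hydrocarbon receptor binds, and TGACNNNGC, the core of the antioxidant response element bound by Nrf2. Capitals mark matches, and CACGC is GCGTG read on the other strand.
Cyp1b1, chr17:79715062-79715311, minus strand: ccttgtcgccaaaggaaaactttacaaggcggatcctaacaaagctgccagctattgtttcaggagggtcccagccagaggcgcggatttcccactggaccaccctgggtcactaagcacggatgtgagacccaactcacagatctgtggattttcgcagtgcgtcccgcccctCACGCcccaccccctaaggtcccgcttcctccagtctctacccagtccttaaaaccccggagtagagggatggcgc
Gsta3, chr1:21240335-21240584, plus strand: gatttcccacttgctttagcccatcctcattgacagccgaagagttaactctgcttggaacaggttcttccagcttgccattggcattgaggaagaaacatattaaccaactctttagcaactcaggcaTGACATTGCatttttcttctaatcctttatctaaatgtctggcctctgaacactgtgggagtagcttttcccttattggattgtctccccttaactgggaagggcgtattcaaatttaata
Cyp4b1, chr4:115647722-115647971, minus strand: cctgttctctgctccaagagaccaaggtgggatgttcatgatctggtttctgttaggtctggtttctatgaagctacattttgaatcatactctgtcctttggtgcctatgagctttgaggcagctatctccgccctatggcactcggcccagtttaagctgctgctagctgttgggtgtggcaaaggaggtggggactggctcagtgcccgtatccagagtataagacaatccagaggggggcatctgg
Cyp2b10, chr7:25897408-25897657, plus strand: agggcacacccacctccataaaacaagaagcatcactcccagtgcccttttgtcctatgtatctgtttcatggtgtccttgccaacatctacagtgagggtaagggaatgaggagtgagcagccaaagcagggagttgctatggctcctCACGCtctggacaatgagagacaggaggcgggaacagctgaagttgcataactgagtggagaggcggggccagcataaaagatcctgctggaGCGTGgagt

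Cyp1b1 has 1 match to GCGTG in the window, Cyp2b10 has 2, Gsta3 has 1 match to TGACNNNGC, and Cyp4b1 has none of either. Such matches are common. In windows of 300 bases (250 before and 50 after the start), GCGTG is in 32.4% and TGACNNNGC in 12.4% of the 32851 RefSeq promoters. Promoters could be matched for 14 of the 16 lower members. Of these 17 promoters, 5 (29.4%) hold GCGTG and 3 (17.6%) hold TGACNNNGC. Over the 41 of 48 tested members with a match, 14 of 51 promoters (27.5%) hold GCGTG and 7 (13.7%) hold TGACNNNGC. A match in these letters is not a binding site, and no binding was measured.

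Set against saline-treated wild-type lung, challenged knockout lung had fewer called members. The comparison changes genotype and challenge together, which cannot be told apart here, and it shares the DJ-1 KO OVA libraries with the comparison above. In limma, 7 members were lower and 1 was higher, where 4.47% of all genes were lower, 4.07% higher and 8.54% called in either direction. Of the 48, 43 had a negative difference (median -0.56), or 36 at equal FPKM sums. Without DJ1_KO_OVA_266 the called members were 16, without DJ1_KO_OVA_267 they were 2, and without WT PBS libraries 1, 2 and 3 they were 2, 4 and 5.

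Cyp2a5 and Cyp2e1 were the steadiest of these, past the threshold under every alternative that tested them. Cyp2a5 had 5.24, 2.57 and 3.67 FPKM in DJ-1 KO OVA and 15.9, 14.5 and 12.2 FPKM in WT PBS (-1.80 ± 0.26, adjusted p = 0.00421), with the WT OVA libraries between them. Cyp2e1 averaged 0.378 ± 0.178 FPKM in DJ-1 KO OVA and 1.45 ± 0.29 in WT PBS (-1.16 ± 0.21, adjusted p = 0.0103). Cyp4b1 averaged 17.1 ± 6.3 FPKM in DJ-1 KO OVA and 48.9 ± 8.4 in WT PBS (-1.53 ± 0.32, adjusted p = 0.0189). Gstm1 averaged 57.9 ± 7.0 FPKM in DJ-1 KO OVA and 153 ± 32 in WT PBS (-1.38 ± 0.27, adjusted p = 0.0156). Also lower were Gsta3 (-1.30, adjusted p = 0.0337), Fmo6 (-1.36, adjusted p = 0.0133) and Cyp4f18 (-1.51, adjusted p = 0.0436). Cyp4f18 was the only one of these 7 that was not called against WT OVA.

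Neutrophil markers were measured beside Cyp4f18. Of 8, 6 were lower in DJ-1 KO OVA against WT OVA and 7 against WT PBS, beside 8.24% and 4.47% of all genes tested. The mean log2 level of these markers in DJ-1 KO OVA was 5.54, 6.38 and 5.63. It was 7.43 to 7.73 in WT OVA and 7.60 to 8.20 in WT PBS. S100a9, a neutrophil calcium-binding protein, had 835, 2656 and 835 FPKM in DJ-1 KO OVA, against 7826 to 11839 in WT OVA. Within WT PBS, library 2 had the lowest Cyp4f18 value (91.0 FPKM) and the highest marker level (8.20). Cyp4f18 put the knockout libraries in the order of Cyp1a1, which 9 of the 17 lists had, the neutrophil list among them. An order of 3 libraries cannot tell these lists apart. The part of neutrophils in the Cyp4f18 values was not tested.

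Ovalbumin challenge of wild-type mice called none of the 48 members in limma, and 0 were called in the limma-voom fit. In this comparison 0.00564% of all genes passed. At an unadjusted p below 0.05 there were 6 members, 5 higher and 1 lower, compared with 6.47% of all genes tested, and each had an adjusted p of 0.729. The 5 with higher values were Gsto1 (0.85 ± 0.23), Gsta4 (0.81 ± 0.31), Cyp2b10 (0.80 ± 0.33), Gsta3 (0.72 ± 0.32) and Mgst2 (0.71 ± 0.27). Gsto1 stood at 227, 161 and 214 FPKM in WT OVA, against 129, 111 and 92.3 in WT PBS, and Gsta4 at 79.9, 110 and 65.3 FPKM in WT OVA, against 55.3, 63.5 and 29.5 in WT PBS. In all 5 genes the WT OVA libraries lay above the WT PBS libraries. These genes were picked by their p-value and sign in this same comparison, so that separation adds no support. Cyp2a5 had the opposite sign, at 8.19, 10.1 and 6.21 FPKM in WT OVA, against 15.9, 14.5 and 12.2 in WT PBS (-0.78 ± 0.26).

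Side by side, the wild-type groups placed the lower members differently. Gsta3 had 8.78 ± 2.31 FPKM in DJ-1 KO OVA, 37.3 ± 11.4 in WT OVA and 22.9 ± 7.8 in WT PBS (SD, n = 3 each). Mgst3 averaged 26.2 ± 11.9 FPKM in DJ-1 KO OVA, 59.3 ± 13.3 in WT OVA and 37.1 ± 10.4 in WT PBS, and the knockout did not pass against WT PBS (-0.55 ± 0.34). Gsta4 averaged 38.7 ± 6.7 FPKM in DJ-1 KO OVA, 84.9 ± 22.6 in WT OVA and 49.4 ± 17.7 in WT PBS, with neither difference from WT PBS past the threshold. Cyp2b10 averaged 14.7 ± 6.0 FPKM in DJ-1 KO OVA, 37.0 ± 9.4 in WT OVA and 20.8 ± 4.3 in WT PBS. The mean of Cyp4b1 was 47.6 ± 19.1 FPKM in WT OVA and 48.9 ± 8.4 in WT PBS, and that of Gstm1 was 134 ± 43 FPKM in WT OVA and 153 ± 32 in WT PBS. These comparisons share libraries, so their values are not independent.

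The 25 glutathione transferase genes summed to 453, 588 and 455 FPKM in DJ-1 KO OVA, against 914, 1030 and 810 in WT OVA and 787, 769 and 541 in WT PBS. The knockout range overlapped that of WT PBS through DJ1_KO_OVA_266. The 75 P450 genes summed to 304, 399 and 367 FPKM in DJ-1 KO OVA, against 830, 1477 and 506 in WT OVA and 1290, 778 and 655 in WT PBS, most of it Cyp2f2. The 7 Fmo genes summed to 53.9, 31.3 and 51.1 FPKM in DJ-1 KO OVA and overlapped the 51.8, 98.1 and 65.2 FPKM of WT OVA. As a share of each library's total FPKM, all 107 genes together held 2.63, 2.16 and 2.28 per mille in DJ-1 KO OVA, against 3.03, 4.57 and 2.29 in WT OVA and 4.36, 2.92 and 3.18 in WT PBS. By that share the OVA groups overlapped.

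**Figure D4:**
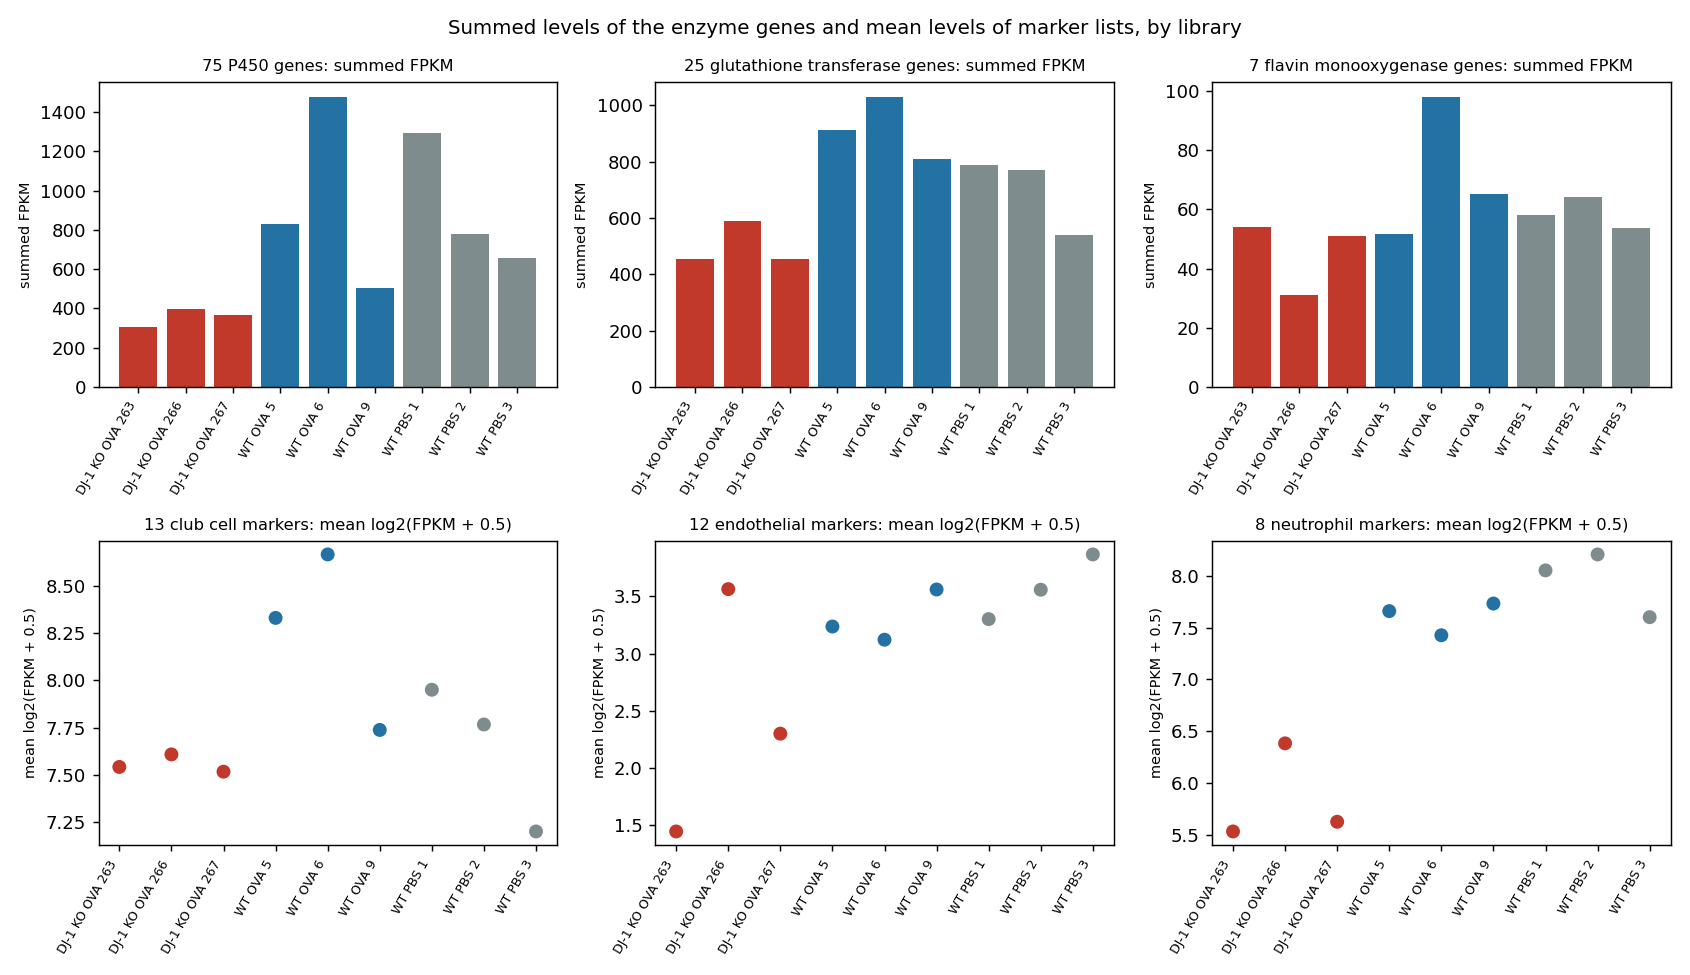
Top row, FPKM summed over all genes of each enzyme class in each library (bars from 0); bottom row, mean log2(FPKM + 0.5) of the club cell, endothelial and neutrophil marker lists (points, axes not starting at 0). Red is DJ-1 KO OVA, blue WT OVA, grey WT PBS: P450 and transferase sums are lowest in 2 or more red bars, and the endothelial list is lowest in DJ1_KO_OVA_263.

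Club cell markers were measured beside these genes, since several members are known from that cell. Of 13, 3 were lower (Scgb3a2, Cbr2 and Lypd2) and 1 was higher (Muc5b) in DJ-1 KO OVA against WT OVA, with a median of -0.87. The list summed to 26973 to 36164 FPKM in DJ-1 KO OVA, 37756 to 113954 in WT OVA and 25211 to 66433 in WT PBS, and none of its genes was at 0. Scgb1a1, the main secretory product of the club cell, had 23605, 32268 and 25640 FPKM in DJ-1 KO OVA, against 65233, 100231 and 31596 in WT OVA, and did not pass (-1.13 ± 0.76, adjusted p = 0.302). Like Cyp2f2, it was highest in WT OVA library 6 and WT PBS library 1 of their groups. Alveolar type 2 markers were lower for 2 of 12 and higher for 1, and goblet markers higher for 3 of 8. Alveolar type 1 markers were lower for 3 of the 9 tested, without Pdpn, and ciliated markers for 2 of the 11 tested. Macrophage markers were higher for 2 of 12 and lower for 1. Over all genes tested, 8.24% were lower and 5.93% higher in DJ-1 KO OVA against WT OVA, so the smaller of these counts are near that share. The part of these cell types in the enzyme results was not tested. Of the liver and fat markers, Serpina1a and Lep were at 0 in all 9 libraries. Hepatocyte markers summed to 3.07 to 4.74 FPKM in DJ-1 KO OVA, 2.45 to 5.29 in WT OVA and 2.40 to 3.87 in WT PBS, with 1 of 5 tested higher. For adipocytes 1 of 1 tested was lower, on sums of 7.09 to 13.5 FPKM in DJ-1 KO OVA, against 26.3 to 40.2 in WT OVA. Cardiomyocyte markers had 1 of 3 tested lower, on sums of 2.82 to 9.21 FPKM in DJ-1 KO OVA, against 10.4 to 12.1 in WT OVA.

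The proteins that serve these enzymes were examined by list. Over all genes tested, 8.24% were lower and 5.93% higher in DJ-1 KO OVA against WT OVA. A single called gene in a short list therefore says little about the list. Among the electron donors of P450, 1 of 9 was lower in DJ-1 KO OVA against WT OVA, with a median of -0.44. That gene was Cyb5a, cytochrome b5, at 40.2, 56.9 and 33.9 FPKM in DJ-1 KO OVA, against 96.1, 119 and 102 in WT OVA (-1.29 ± 0.30, adjusted p = 0.0259). Por, the P450 reductase itself, had 51.7, 77.1 and 56.5 FPKM in DJ-1 KO OVA, against 89.9, 121 and 55.1 in WT OVA, and did not pass (-0.47 ± 0.32, adjusted p = 0.305).

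Of the xenobiotic receptors and their partners, 1 of 8 tested was higher, beside 5.93% of all genes tested. Ahr, the aryl hydrocarbon receptor, stood at 4.03, 4.70 and 8.60 FPKM in DJ-1 KO OVA, against 2.61, 2.48 and 2.76 in WT OVA (0.94 ± 0.26, adjusted p = 0.0399). All 3 knockout libraries were above all 6 wild-type libraries. Tiparp, of the same list, had 16.0, 14.1 and 21.9 FPKM in DJ-1 KO OVA, against 13.9, 16.3 and 15.8 in WT OVA. Its difference did not pass (0.15 ± 0.23, adjusted p = 0.666). A link between Ahr and Cyp1b1 was not tested. Ahrr, which represses the receptor, had at most 0.0370 FPKM in any library. Nfe2l2, which encodes Nrf2, averaged 50.3 ± 8.2 FPKM in DJ-1 KO OVA and 63.1 ± 5.8 in WT OVA (-0.33 ± 0.21, adjusted p = 0.27), and its repressor Keap1 did not pass either (0.26 ± 0.19, adjusted p = 0.348). Nr1i3, the receptor that phenobarbital acts through in mouse liver to induce Cyp2b10, gave 1 read in 1 library.

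The supply of glutathione was mixed, with 2 of 15 genes higher and 3 lower, beside 5.93% and 8.24% of all genes tested. Gclc, the catalytic subunit of the rate-limiting ligase of glutathione synthesis, had 71.1, 40.6 and 43.1 FPKM in DJ-1 KO OVA, against 22.0, 26.3 and 15.4 in WT OVA (1.25 ± 0.29, adjusted p = 0.0245). Slc7a11, the cystine importer, was at 4.70, 3.91 and 10.4 FPKM in DJ-1 KO OVA, against 2.43, 2.78 and 2.55 in WT OVA (1.03 ± 0.29, adjusted p = 0.0447). The genes for the next step of synthesis and for recycling had the opposite sign. Gss, glutathione synthetase, averaged 3.04 ± 0.83 FPKM in DJ-1 KO OVA and 5.86 ± 0.89 in WT OVA (-0.86 ± 0.22, adjusted p = 0.0327). Gsr, glutathione reductase, averaged 51.0 ± 12.4 FPKM in DJ-1 KO OVA and 99.4 ± 9.4 in WT OVA (-0.98 ± 0.23, adjusted p = 0.026). Gpx4, the lipid hydroperoxide peroxidase, averaged 132 ± 72 FPKM in DJ-1 KO OVA and 306 ± 12 in WT OVA (-1.34 ± 0.37, adjusted p = 0.0412).

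Other conjugating and hydrolysing enzymes were lower for 6 of 20 tested and higher for 1, with a median of -0.62. Sult1d1, a sulphotransferase, had 2.37, 1.72 and 2.16 FPKM in DJ-1 KO OVA, against 13.5, 30.6 and 9.51 in WT OVA (-2.67 ± 0.41, adjusted p = 0.00743). Also lower were Cbr2 (-1.77), a carbonyl reductase of club cells that is in that marker list too, Sult1a1 (-1.64), the carboxylesterase Ces1d (-1.61), Nqo1 (-0.96), a quinone reductase controlled by Nrf2, and Cbr1 (-0.76). The 1 higher gene was the epoxide hydrolase Ephx2 (0.69). Among export pumps for conjugates, 1 of 7 was higher (Abcc5, 1.03, adjusted p = 0.0275). Over all genes tested, 8.24% were lower and 5.93% higher.

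Against WT PBS, the same lists had 1 of 9 electron donors lower (Cyb5r1, -0.83), and Gclc (1.23) and Lap3 (1.33) higher with Gss (-0.90), Gsr (-1.47) and Ggt5 (-0.79) lower among the 15 glutathione supply genes. Sult1a1 (-1.08), Sult1d1 (-2.55) and Ces1d (-1.13) were lower among the 20 other enzymes. Over all genes tested, 4.47% were lower and 4.07% higher in that comparison. No receptor and no export pump was called there by limma or limma-voom, with 1 of each higher and 1 of each lower at an unadjusted p below 0.05. In WT OVA against WT PBS these lists had 0 called genes with either tool. At an unadjusted p below 0.05, 2 electron donors, 2 glutathione supply genes and 2 other enzymes were higher there, and 1 glutathione supply gene was lower.

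The scaling between libraries moved the members' differences. Rescaling every library to the same FPKM sum shifted the median of all genes by 0.46 in the comparison of the OVA groups. The median of the 48 members was then -0.19, which is -0.65 relative to that median gene, with 18 members above 0 and 30 below. Gsta3 stayed lower and Cyp1b1 stayed higher past the threshold, and the other 15 called members did not pass.

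**Figure D5:**
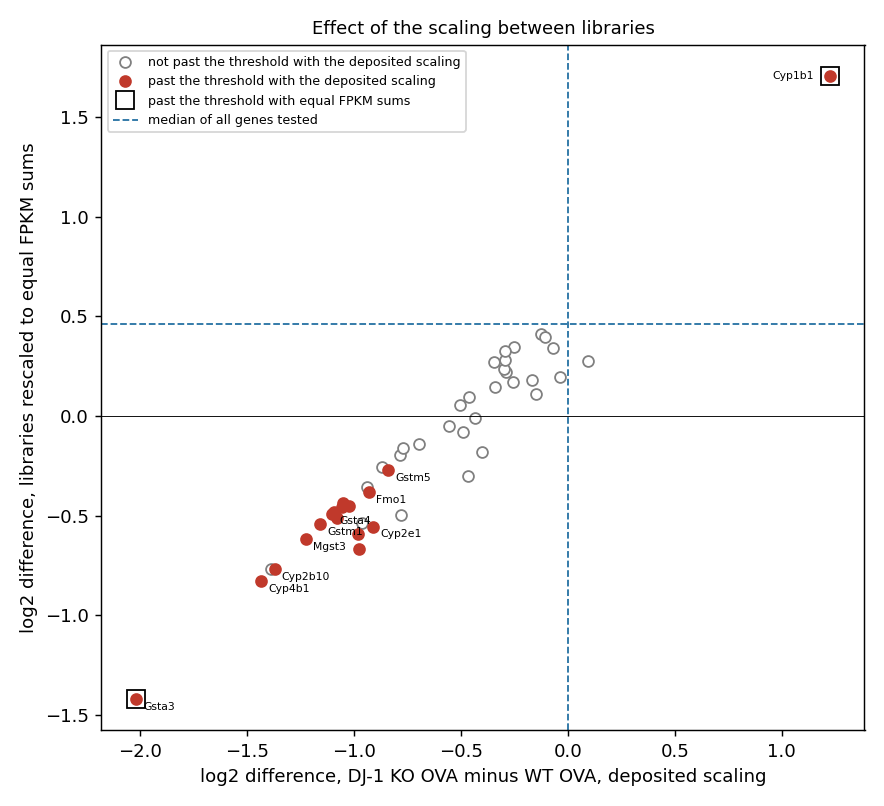
Log2 difference of 47 of the genes tested in DJ-1 KO OVA against WT OVA with libraries rescaled to equal FPKM sums (vertical) against the deposited scaling (horizontal); dashed lines are the median of all genes tested, filled points passed the threshold with the deposited scaling and squares with equal sums. The cloud is shifted up by about the 0.46 that the median gene moved, and Gsta3 and Cyp1b1 carry both marks.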

How the data were processed

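Values came from a deposited table of FPKM for 55851 genes in 9 libraries, 3 per group by the sample labels. Trimmomatic, HISAT2, HTSeq and the build GRCm38.p6 are named in the submitters' processing notes; their versions and the strand setting were not given in the sources used here. Per the labels' protocols, RNA was taken with TRIzol and libraries were made with an Illumina TruSeq RNA kit. FPKM times gene length (another deposited column) times the library size recovered for each library gave whole reads for 100% of non-zero values within 0.01 reads.

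Differences were fitted by limma-trend (limma 3.58.1, R 4.3.3) on log2(FPKM + 0.5) for 17716 genes, those whose mean FPKM reached 0.2, in one fit of the 3 groups with 6 residual degrees of freedom. Tests were two-sided, with Benjamini-Hochberg adjustment over all genes and a threshold of 0.05. Genes described individually were all called members plus the 2 most abundant of each family, with called genes of the pathway lists and leading markers; a few others named beside them were chosen after their values were seen. Members and lists were chosen with earlier results of these data known. Reads that members could share were judged from 50-base stretches of GENCODE M21 transcripts, because no protein table was used here. Promoters came from RefSeq (GRCm38.p6), matched for 90 of 107 members. Some genes are not reported individually here. Alternatives changed the pseudocount (0.1 or 1), filter, scaling, variance model and fitted groups, or left out each library.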

Additional observations from a re-analysis of the deposited data

How the results depend on the processing

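In DJ-1 KO OVA against WT OVA, 17 members were called (1 higher, 16 lower). Without the filter 1 was called (0 higher, 1 lower), with equal FPKM sums 2 (1 higher, 1 lower), and with only the 2 groups compared in the fit 6 (0 higher, 6 lower). Leaving out each library gave 1 to 22 members, with 0 to 1 higher and 1 to 21 lower. In DJ-1 KO OVA against WT PBS, 8 were called (1 higher, 7 lower). Without the filter 4 were called (0 higher, 4 lower), with equal FPKM sums 7 (2 higher), with quantile normalization 9 (2 higher), and with only the 2 groups in the fit 5 (0 higher). Leaving out each library gave 2 to 16 members, with 0 to 1 higher and 2 to 15 lower. In WT OVA against WT PBS the count was 0 under every alternative run. The cause of these changes was not tested, apart from the smaller number of libraries when some are left out and the larger number of genes adjusted over without the filter (30389).

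Of the 48 members tested in DJ-1 KO OVA against WT OVA, 16 changed sign with equal FPKM sums, 1 with quantile normalization, 1 in the limma-voom fit and 0 to 4 when a library was left out. For the called members and the 2 most abundant of each family, 35 differences were followed one by one, and 4 of these members changed sign. The 35 included every such difference in DJ-1 KO OVA against WT OVA and the called ones against WT PBS. From WT OVA against WT PBS only Gsto1 was included. That choice was made after the calls were known, and the other uncalled differences were left out. With equal FPKM sums Fmo2 was at 0.27, Gsto1 at 0.32, Gstp1 at 0.40 and Gstt2 at 0.053; Gsto1 was at 0.26 with quantile normalization, and Gstp1 ran from -0.45 to 0.36 when a library was left out, above 0 without DJ1_KO_OVA_263 or WT OVA library 9 (0.07). The 35 differences kept their direction and their side of the threshold in 449 of the alternative fits, lost the call in 166 and gained it in 6. Over all genes, the calls in DJ-1 KO OVA against WT OVA numbered 2510, with 286 to 5694 when a library was left out, 645 without the filter, 5034 with equal FPKM sums and 1131 with only the 2 groups fitted. With equal FPKM sums 4432 of the calls were higher and 602 lower, against 1051 and 1459 with the deposited scaling.

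No paired analysis was possible because the groups share no replicate numbers. An exact permutation of 3 libraries against 3 cannot reach a two-sided p below 0.10, so the tests rest on the spread shared across genes. Counts of 2 to 30 reads limit Cyp1a1, Cyp2e1, Cyp3a13 and Fmo6 in 1 or more knockout libraries, and intervals cover the spread of 3 libraries only.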
